A study of Mus musculus with 9 samples.

Results

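The genes described here are 10 of the protein-coding genes carried by the mouse mitochondrial genome: ND1, ND2, ND4, ND5, CYTB, COX1, COX2, COX3, ATP6 and ATP8. They were chosen by name from the study's gene tables and not by a cut on their values, though with earlier results of these data known. They were found under these upper-case symbols among 20618 genes, and they are 10 of the 13 protein-coding genes of mitochondrial DNA in the tables; ND3, ND4L and ND6 are the others. Mitochondrial DNA encodes core subunits of the respiratory chain and of ATP synthase, the enzymes by which cells oxidise fuel and make ATP, while all other subunits of these complexes are encoded in the nucleus and imported. Both strands of the circular genome are transcribed as long precursor RNAs, which are cut, largely at the transfer RNAs that lie between the coding genes, into separate messengers whose later abundance depends on processing, stability and decay. CD8+ T cells use this chain during activation and in long-lived memory cells, and the mitochondrial share of RNA is also widely read as a sign of sample quality.

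The study sequenced RNA of CD8+ T cells, lymphocytes that kill infected or transformed cells, taken from wild-type mice and kept for 24 h in 1 of 3 media, each with dialyzed fetal bovine serum. The media held 2 mM glucose, 2 mM inosine (a purine nucleoside whose ribose can be burned as fuel), or 2 mM inosine together with hypoxanthine (the purine base released when inosine is split), whose dose is not repeated here because its unit is incomplete in the labels. There were 3 libraries per medium, all made from sorted live cells and all given the same label for batch. The labels do not state whether replicates are separate mice or cultures, so each p-value rests on a spread between libraries that may be technical. As the series title has it, the study concerns hypoxanthine and the inosine metabolism of CD8+ T cells; the comparisons asked what inosine in place of glucose, and hypoxanthine added to inosine, did to their RNA.

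Depth, estimated from the authors' deposited group means, was 30893106 to 50043085 reads per library, and a member held 10266 to 743434 estimated reads in a library, so counting error was small beside the spread between libraries. Summed FPKM (fragments scaled by gene length and library depth) of 8 CD8 T cell markers was 772 to 1007 in the glucose and inosine libraries and 1327 to 1417 with hypoxanthine. Of these, Cd3d, Cd3e, Cd3g, Cd8a, Cd8b1 and Ptprc were higher in all 3 libraries with hypoxanthine than in the other 6 (Cd8a at 168 to 179 against 69.7 to 91.9 FPKM), whereas Cd247 (31.2 to 33.6 against 25.5 to 51.6) and Cd2 (84.8 to 86.3 against 78.6 to 109) overlapped. The defining markers of other cells were near 0 in every library: at most 0.072 FPKM summed for CD4 T cells (2 genes), 0.315 for B cells (3), 0.0558 for myeloid cells (4), 0.241 for NK cells (2) and 0.437 for red cells (5). Stromal and endothelial markers (3 genes) summed to 3.98 to 4.54 FPKM with hypoxanthine and 2.77 to 3.69 in the other 6 libraries; nearly all of this was Pecam1 (3.96 to 4.52 against 2.74 to 3.66), with Col1a1 and Col3a1 at most 0.0457 and 0.034, and its part in the results was not tested. In bulk RNA, fewer cells of a type and less RNA per cell cannot be told apart, and neither can fewer mitochondrial genomes and less RNA from each.

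All 10 members lie on the + strand of the mitochondrial chromosome in the GRCm38 annotation, and each is a gene of a single exon. In order along the genome they are ND1 (chrM:2751-3707), ND2 (chrM:3914-4951), COX1 (chrM:5328-6872), COX2 (chrM:7013-7696), ATP8 (chrM:7766-7969), ATP6 (chrM:7927-8607), COX3 (chrM:8607-9390), ND4 (chrM:10167-11544), ND5 (chrM:11742-13565) and CYTB (chrM:14145-15288). ATP8 and ATP6 are read from 1 messenger in different frames and share 43 bases, so reads across the shared stretch belong to both. The stretch is shown because it limits how far their levels can be separated; capitals mark the bases that are in both genes (chrM:7912-7984, + strand).

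ATP8/ATP6: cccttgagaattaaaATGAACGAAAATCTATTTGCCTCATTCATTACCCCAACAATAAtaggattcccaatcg

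The messengers whose relative levels differed most between media below were COX1, COX2, CYTB and ND2. The first 30 bases of each coding sequence are shown so that a reader can tell these genes apart, with the start codon in capitals; mitochondria read ATA as a start codon in ND2.

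COX1: ATGttcattaatcgttgattattctcaacc
COX2: ATGgcctacccattccaacttggtctacaa
CYTB: ATGacaaacatacgaaaaacacacccatta
ND2: ATAaatcctatcacccttgccatcatctac

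The last 30 bases of 2 of these genes show a second feature of mitochondrial messengers. COX1 ends in a full stop codon, whereas CYTB is annotated as ending in a lone T (capitals), which becomes a stop codon when the RNA tail is added.

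COX1: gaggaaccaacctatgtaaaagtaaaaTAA
CYTB: tcgaagacaaaatactaaaattatatccaT

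Some members have near-identical copies in the nuclear genome, relics of mitochondrial DNA inserted into chromosomes, and reads from the 2 sources may be hard to assign. Annotated nuclear pseudogenes matched COX2 (Gm28661 on chromosome 1), ATP6 (Gm10925) and COX3 (Gm28437) at 100.0% identity over more than 99% of their length, and ND4 (Gm28439) over 63.6% of it. Of 3 annotated nuclear genes that matched COX1, the 1 with the most matching bases (Gm13340 on chromosome 2) was 97.6% identical over its whole length. For CYTB the match with the most bases was 92.9% identical, and ND1 had none. Only the match with the most bases was kept for each gene, so shorter matches of higher identity are not described. None of these pseudogenes is a row of the tables. How the authors treated reads that fit more than 1 place is not given in the sources used here. The levels of at least COX2, ATP6, COX3 and ND4 carry this uncertainty, and for COX1 shorter matches were not examined.

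COX1 was the most abundant of the 10 in every library. In glucose its mean was 4218 ± 303 FPKM (SD, n = 3), followed by ND1 at 2073 ± 182, COX2 at 1822 ± 150, CYTB at 1706 ± 101, COX3 at 1671 ± 194, ATP6 at 1520 ± 130, ATP8 at 1468 ± 262, ND2 at 1066 ± 117, ND4 at 893 ± 87.6 and ND5 at 669 ± 39.1. In glucose the ranges of neighbours in this order overlapped from ND1 to ATP8, and those of ND2 and ND4 just met. COX1 stood clear above ND1, and ND5 clear below ND4. ND3, ND4L and ND6, which are not members, were lower, at 384, 562 and 422 FPKM in glucose.

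The amount of mitochondrial messenger differed more among the libraries of inosine, or of inosine with hypoxanthine, than among the means of the 3 media. The 10 members summed to 17170, 15679 and 18467 FPKM in the 3 glucose libraries (replicates 1 to 3), a mean of 17105 ± 1395. The sums were 17381, 27661 and 19446 FPKM in inosine, a mean of 21496 ± 5438. With hypoxanthine they were 16049, 25061 and 17486 FPKM, a mean of 19532 ± 4841. Replicate 2 of inosine and replicate 2 of inosine with hypoxanthine thus stood above the other 7 libraries, which lay between 15679 and 19446.

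Replicate 2 was the highest of its medium for 10 of 10 members both in inosine and with hypoxanthine, at 1.33 to 1.66 and 1.41 to 1.56 times the mean of the other 2 libraries. Over 9934 genes outside the mitochondrial genome whose mean reached 1 FPKM, the same ratio had a median of 0.99 in inosine and 0.95 with hypoxanthine. In glucose, replicate 2 was the lowest for 9 of 10 members. The 10 members took 6.06% of all FPKM in replicate 2 of inosine and 5.41% in replicate 2 with hypoxanthine, against 3.75% to 4.51% elsewhere. The same 2 libraries had the highest total FPKM (456457 and 463300, against 418501 to 440626), and the summed level of the nuclear RNAs Malat1 and Neat1 was 115 and 95.9 FPKM there and 65.6 to 97 elsewhere; the part of these in the members' levels was not tested.

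**Figure D1:**
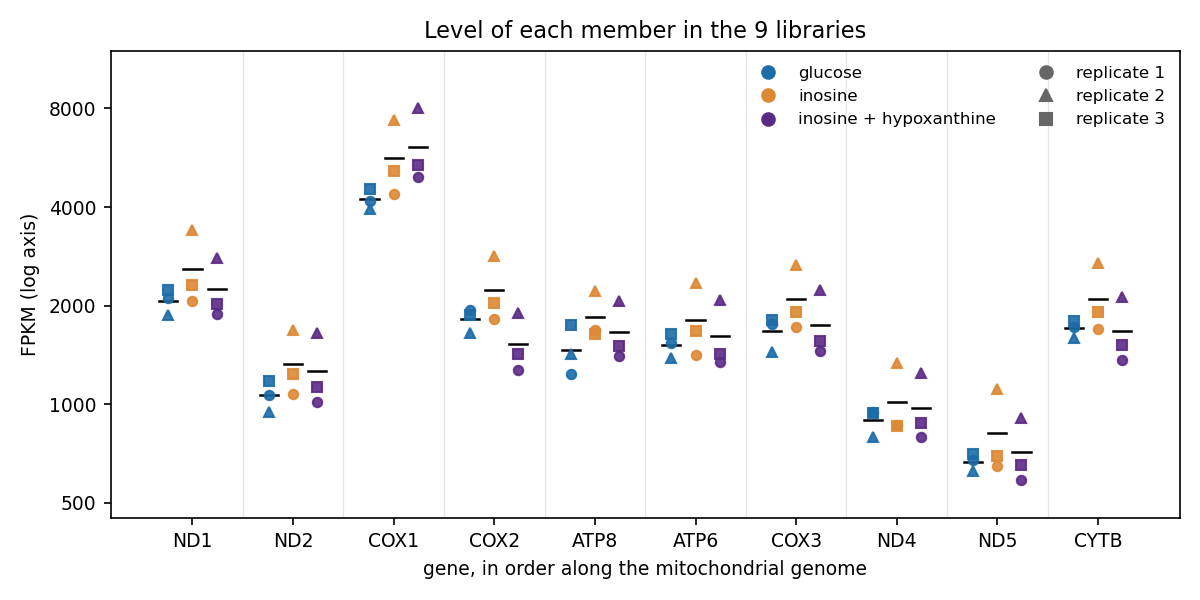
FPKM (log axis) of the 10 members, in order along the mitochondrial genome, with 1 point per library, colour for the medium, shape for the replicate and a bar for the mean of the 3 libraries. The triangles of inosine and of inosine with hypoxanthine (replicate 2) stand above the other points of their medium for every gene, and COX1 stands above all other genes.

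Among subunits of complex I, which takes electrons from NADH, ND1 was at 2104, 1878 and 2237 FPKM in glucose, 2063, 3410 and 2316 in inosine, and 1891, 2801 and 2030 with hypoxanthine. ND2 was at 1069, 948 and 1182 FPKM in glucose, 1077, 1681 and 1233 in inosine, and 1017, 1652 and 1131 with hypoxanthine. Both genes overlapped between all 3 media. ND4 was at 948, 792 and 938 FPKM in glucose, 867, 1332 and 856 in inosine, and 794, 1245 and 877 with hypoxanthine. ND5, the least abundant member, ranged from 627 to 704 FPKM in glucose, 648 to 1114 in inosine and 586 to 905 with hypoxanthine. Like the other 2, ND4 and ND5 overlapped between media.

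CYTB, the cytochrome b core of complex III, was at 1725, 1597 and 1797 FPKM in glucose, 1693, 2692 and 1917 in inosine, and 1366, 2130 and 1514 with hypoxanthine. In each medium its spread followed that of the summed members.

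COX1, COX2 and COX3 form the catalytic core of complex IV, cytochrome c oxidase, which hands electrons to oxygen. COX1 was at 4184, 3934 and 4537 FPKM in glucose, 4394, 7366 and 5153 in inosine, and 4929, 8049 and 5374 with hypoxanthine. It was the 1 member whose libraries did not overlap between 2 media: all 3 libraries with hypoxanthine lay above all 3 with glucose, as they did for 19.8% of all genes. COX2 was at 1940, 1653 and 1874 FPKM in glucose, 1820, 2835 and 2041 in inosine, and 1268, 1900 and 1425 with hypoxanthine, so that its lowest 2 values of all 9 came with hypoxanthine. COX3 was at 1759, 1449 and 1805 FPKM in glucose, 1719, 2665 and 1915 in inosine, and 1450, 2239 and 1556 with hypoxanthine, with overlap between all media.

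ATP6 and ATP8 are parts of the proton channel and stalk of ATP synthase. ATP6 was at 1534, 1383 and 1642 FPKM in glucose, 1411, 2346 and 1679 in inosine, and 1345, 2080 and 1421 with hypoxanthine. ATP8 was at 1233, 1419 and 1751 FPKM in glucose, 1689, 2219 and 1641 in inosine, and 1403, 2060 and 1506 with hypoxanthine. ATP8, the shortest member at 204 bases, did not follow the others as closely in glucose, where its lowest library was replicate 1.

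For inosine against glucose, all 10 members had higher means in inosine and none passed the test. The log2 differences on the log2(FPKM + 1) scale ran from 0.16 for ND4 to 0.39 ± 0.22 (SE) for COX1, with a median of 0.28 beside 0.00 over all genes. In limma's moderated test over all 20618 genes, with Benjamini-Hochberg adjustment, 0 of 10 were called at an adjusted p under 0.05 and 0 of 10 had an unadjusted p under 0.05; the smallest unadjusted p was 0.108 (ATP8) and every adjusted p was 1. Of all genes, 0.00970% were called in this comparison. The 95% intervals of the members reached from -0.31 to 0.89 and each included 0. Without replicate 2 of inosine 9 of 10 were higher, with a median of 0.08. Without the 2 libraries of highest mitochondrial share the difference of COX1 was 0.18 ± 0.10 and that of COX2 0.08 ± 0.10.

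In the authors' deposited table for the same libraries, COX1 was 0.44 higher on the log2 scale in inosine, with an unadjusted p of 0.00562 and an adjusted p of 0.99987. There 7 of 10 members had an unadjusted p under 0.05, where limma gave 0, but 0 had an adjusted p under 0.05 and none was marked as significant. The members swung together between libraries, so these 7 are not independent of each other. The share of all genes at that unadjusted p in the authors' comparison is not given here.

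With hypoxanthine added to inosine, 9 of 10 members had lower means than in inosine alone and COX1 had a higher one. This count changed with single libraries: without replicate 2 of inosine 4 of 10 were lower (median 0.03), without replicate 1 with hypoxanthine 7 were, and without replicate 1 of inosine or replicate 2 with hypoxanthine all 10 were, with COX1 at -0.10 in the last case. The log2 differences had a median of -0.17 beside 0.00 over all genes and ran from -0.54 for COX2 to 0.12 for COX1. COX2 had a mean of 2232 ± 534 FPKM in inosine and 1531 ± 329 with hypoxanthine (SD, n = 3), a log2 difference of -0.54 ± 0.19 (SE) that did not pass in limma (adjusted p = 0.0791, unadjusted p = 0.02). The next were CYTB (-0.33 ± 0.20, limma adjusted p = 0.308) and COX3 (-0.27 ± 0.20, 0.427), and COX1 was at 0.12 ± 0.22 (0.77). Thus 0 of 10 were called and 1 of 10 had an unadjusted p under 0.05, where 21.3% of all genes were called (11.7% higher and 9.59% lower).

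COX2 lay close to the threshold and was called in 5 of 18 other settings, with limma adjusted p from 0.0124 to 0.235. Without replicate 2 of inosine its difference was -0.35 ± 0.17 (limma adjusted p = 0.188), and without replicate 1 with hypoxanthine it was -0.41 ± 0.20 (0.235). Without the 2 libraries of highest mitochondrial share its difference was -0.52 ± 0.11 (limma adjusted p = 0.023), and without replicate 2 with hypoxanthine alone it was -0.71 ± 0.18 (limma adjusted p = 0.0357). With a replicate block and only these 2 media, COX2 (limma adjusted p = 0.0124), CYTB (0.0155) and COX3 (0.0214) were called. Whether the replicate numbers pair the libraries is not settled. In the authors' deposited table COX2 was 0.58 higher on the log2 scale in inosine than with hypoxanthine, with an adjusted p of 0.010598, and it was not marked as significant.

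For inosine with hypoxanthine against glucose, which shares its libraries with the other 2 comparisons, 8 of 10 members had higher means with hypoxanthine and 2 (COX2 and CYTB) had lower ones; without replicate 2 with hypoxanthine 3 of 10 were higher. COX1 had means of 6118 ± 1688 FPKM with hypoxanthine and 4218 ± 303 in glucose (SD, n = 3) and did not pass the test (log2 difference 0.50 ± 0.22, limma adjusted p = 0.153, unadjusted p = 0.0497). Without replicate 2 with hypoxanthine its difference was 0.29 ± 0.20 (limma adjusted p = 0.398), and without the 2 libraries of highest mitochondrial share 0.29 ± 0.10 (0.0871). Its libraries did not overlap, which was so for 37.6% of all genes (19.8% of all in the upward direction). COX2 was at -0.27 ± 0.19 (limma adjusted p = 0.387), and without the 2 libraries of highest mitochondrial share at -0.44 ± 0.10 (limma adjusted p = 0.0266), the 1 member called in that setting. Again 0 of 10 were called, with 1 at an unadjusted p under 0.05, beside 20.3% of all genes, and limma's F test among the 3 media also called 0 of 10 (0 with an unadjusted p under 0.05), beside 19.3%. The median over the members was 0.08, beside 0.00 over all genes.

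**Figure D2:**
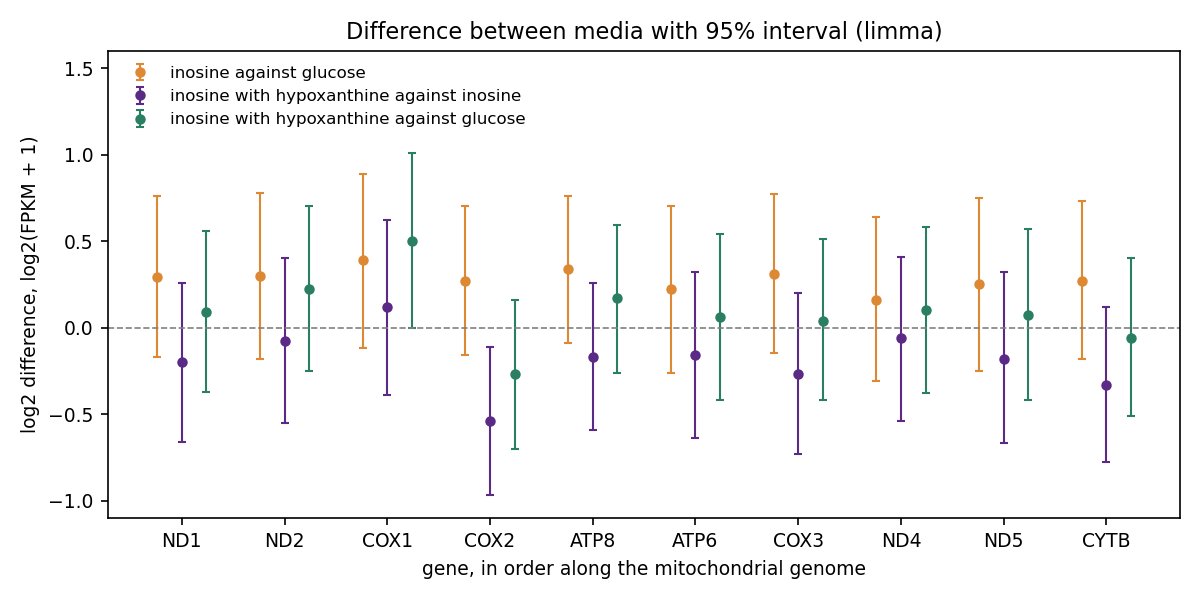
Log2 difference of each member on the log2(FPKM + 1) scale in the 3 comparisons, with its 95% interval from limma over 9 libraries. All points for inosine against glucose lie above 0 with intervals that include 0, and the interval of COX2 for hypoxanthine against inosine is the 1 that lies wholly below 0.

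The members swung together between libraries. The SE of a member's difference was 0.19 to 0.22, against a median of 0.10 for other genes with a mean over 100 FPKM. Within a medium, the SD of log2 FPKM was 0.26 to 0.32 for the 10 members, whereas the SD of the log2 ratio of 2 members had a median of 0.067 over the 45 pairs and reached 0.186. Over the 9 libraries, Pearson's r of each member with the mean of the other 9 was 0.78 (COX2), 0.81 (COX1), 0.86 (ATP8) and 0.95 to 1.00 for the other 7, as a description of libraries that share all their members. Ratios between members were steadier than their levels. They were examined after the levels had been seen, and are given below as a description.

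The share of each messenger among the members was compared between libraries. COX1 made up 24.4%, 25.1% and 24.6% of the members' FPKM in glucose, 25.3%, 26.6% and 26.5% in inosine, and 30.7%, 32.1% and 30.7% with hypoxanthine. COX2 made up 11.3%, 10.5% and 10.1% in glucose, 10.5%, 10.3% and 10.5% in inosine, and 7.9%, 7.58% and 8.15% with hypoxanthine. In both cases the 3 libraries with hypoxanthine lay outside the range of the other 6, in opposite directions. CYTB made up 9.73% to 10.2% in glucose, 9.73% to 9.86% in inosine and 8.5% to 8.66% with hypoxanthine.

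The ratio of COX1 to COX2, which follow each other along the genome and whose proteins meet in the same enzyme, was 2.16, 2.38 and 2.42 in glucose. It was 2.41, 2.6 and 2.52 in inosine, and 3.89, 4.24 and 3.77 with hypoxanthine. The means were 2.32 ± 0.14, 2.51 ± 0.092 and 3.96 ± 0.24 (SD, n = 3), and the log2 ratio was 0.66 higher with hypoxanthine than in inosine, against a within-medium SD of 0.079. This was the largest such difference of the 45 pairs of members, followed by COX2 over ND4 at -0.48. The pair joins the members with the highest and the lowest difference, so its size depends on that choice and is given as a description. The 2 libraries with most mitochondrial RNA each had the highest ratio of their own medium (2.6 beside 2.41 and 2.52, and 4.24 beside 3.89 and 3.77). These gaps were smaller than the gap between the libraries with hypoxanthine and the other 6. The summed CD8 T cell markers were also higher in the libraries with hypoxanthine (1327 to 1417 FPKM) than in the other 6 (772 to 1007), and their part in the ratio was not tested.

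**Figure D3:**
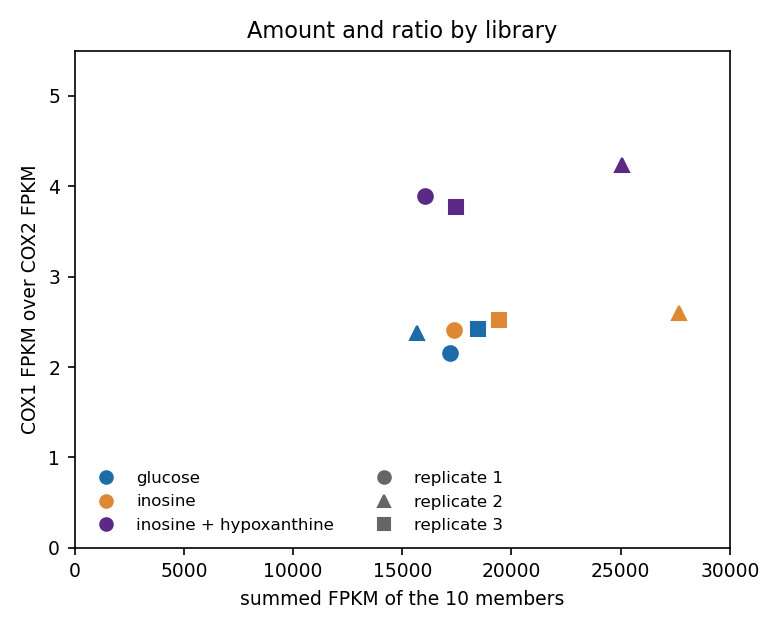
Ratio of COX1 to COX2 FPKM against the summed FPKM of the 10 members, with 1 point per library, colour for the medium and shape for the replicate. The libraries with hypoxanthine lie between 3.77 and 4.24 and the other 6 between 2.16 and 2.6, whether their summed level is low or high. Within each medium the library with the highest sum also has the highest ratio.

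The ratio of COX1 to CYTB was 2.43, 2.46 and 2.52 in glucose, 2.6, 2.74 and 2.69 in inosine, and 3.61, 3.78 and 3.55 with hypoxanthine. Over all 45 pairs of members, the libraries with hypoxanthine lay apart from the other 6 in 26 (57.8%), and inosine lay apart from glucose in 8 (17.8%). The same was so for 26.4% and 13.8% of pairs among the 71 nuclear subunits described below, and for 52.3% and 6.88% of pairs among 593 genes outside the mitochondrial genome with a mean of at least 100 FPKM, so the share of 57.8% lay near that of abundant genes. The 26 pairs hold all 17 pairs that include COX1 or COX2 and 9 of the 28 that include neither. Of those 9, 6 include CYTB, among them ND2 over CYTB, which was 0.593 to 0.658 in glucose, 0.624 to 0.643 in inosine and 0.744 to 0.775 with hypoxanthine. Pairs share members, so these counts are not independent of each other.

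The same difference was put through limma by dividing every gene's FPKM by the geometric mean of the 10 members in its library, a setting added after the values had been seen. By construction the relative log2 differences of the members then balance around 0. Relative to the members, COX1 was 0.30 ± 0.11 (SE) higher with hypoxanthine than in inosine (limma adjusted p = 0.164, unadjusted p = 0.0183) and COX2 was at -0.35 ± 0.12 (limma adjusted p = 0.148, unadjusted p = 0.0152). Against glucose, COX1 was at 0.41 ± 0.11 (limma adjusted p = 0.0726) and COX2 at -0.36 ± 0.12 (0.154). On this scale 0 of 10 members were called in any comparison. For hypoxanthine against inosine, hypoxanthine against glucose and inosine against glucose, 2, 2 and 0 had an unadjusted p under 0.05 in limma. Of all genes, 3.99%, 3.56% and 0.00970% were called, in that order. The division also carries the members' swing between libraries into every other gene. For hypoxanthine against inosine 21.3% of all genes were called before it, so these shares are not a like background for the members.

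The relative differences kept their size when libraries were left out, while the calls depended on how limma shares the spread between genes. Leaving out each library in turn, COX1 stayed between 0.27 and 0.32 and COX2 between -0.37 and -0.33 for hypoxanthine against inosine. With neither a trend with level nor robust estimation of the spread, COX1 (limma adjusted p = 0.0141), COX2 (0.017) and CYTB (-0.14 ± 0.02, 0.0296) were called against inosine, and the same 3 against glucose (0.00547, 0.0161 and 0.0269). Without the 2 libraries of highest mitochondrial share, COX2 was called against inosine (limma adjusted p = 0.0493), and COX1 (0.0163) and COX2 (0.0364) against glucose. The share of all genes called in these settings is not given here. With the 8 members other than COX1 and COX2 as the reference, COX1 was at 0.30 and COX2 at -0.36 against inosine, with limma adjusted p of 0.178 and 0.146.

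Relative levels of 6 members did not overlap between hypoxanthine and inosine: ND2, COX1 and ND4 were higher and COX2, COX3 and CYTB lower. On that scale 12.3% of all genes were higher and 4.28% lower without overlap, shares that also carry the members' swing between libraries. The relative differences of ND2 (0.11), ND4 (0.12), COX3 (-0.08) and CYTB (-0.14) were smaller than those of COX1 and COX2, and those of ND1 (-0.01), ND5 (0.01), ATP6 (0.03) and ATP8 (0.02) were near 0. Of the 3 members with a nuclear copy at 100.0% identity over more than 99% of their length, COX2 was at -0.35, COX3 at -0.08 and ATP6 at 0.03; ND4, with such a copy over 63.6% of its length, was at 0.12. For inosine against glucose the largest relative differences were -0.12 ± 0.13 for ND4 and 0.11 ± 0.11 for COX1.

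**Figure D4:**
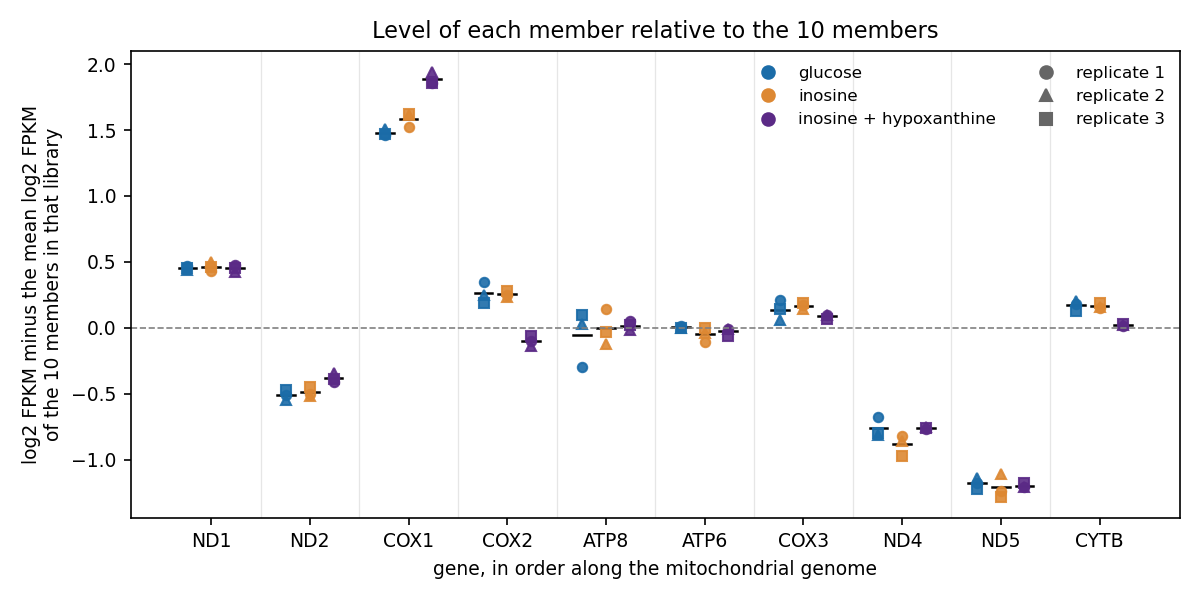
Log2 FPKM of each member minus the mean log2 FPKM of the 10 members in the same library, with 1 point per library and a bar for the mean of each medium. Points of a medium lie close together for most genes, and ATP8 has the widest spread in glucose. The libraries with hypoxanthine lie apart upward for COX1 and, by less, for ND2, and downward for COX2 and CYTB.

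Of the 3 protein-coding genes of mitochondrial DNA outside the members, 0 were called and 0 had an unadjusted p under 0.05 in any of the 3 comparisons in limma. ND3 was at 414, 317 and 423 FPKM in glucose, 438, 567 and 441 in inosine, and 329, 538 and 322 with hypoxanthine. Its libraries were higher in inosine than in glucose without overlap, as for 2.23% of all genes, and it was not called (0.33 ± 0.21, limma adjusted p = 1). ND4L overlapped between media at 486 to 886 FPKM. ND6, the 1 protein-coding gene on the other strand, overlapped as well at 345 to 565 FPKM, with a log2 difference of 0.01 ± 0.20 for hypoxanthine against inosine.

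Nuclear genes for subunits of the same 4 complexes swung less between libraries. The 71 of them found in the tables summed to 11797, 11211 and 11245 FPKM in glucose, 10541, 12371 and 10571 in inosine, and 9822, 11084 and 9878 with hypoxanthine. Replicate 2 was again the highest in inosine and with hypoxanthine, by less than for the mitochondrial members. The members' summed FPKM was 1.40 to 1.64 times the nuclear sum in glucose, 1.65, 2.24 and 1.84 times in inosine, and 1.63, 2.26 and 1.77 times with hypoxanthine.

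With hypoxanthine against inosine, 12 of these 71 nuclear genes (16.9%) fell and 0 rose in limma, beside 9.59% of all genes lower and 11.7% higher, with a median log2 difference of -0.13. By complex, 6 of 36 fell for complex I, 3 of 9 for complex III, 0 of 11 for complex IV and 3 of 15 for ATP synthase. Ndufs1, an iron-sulphur subunit of complex I, fell from 38.8 ± 2.45 to 27.1 ± 1.09 FPKM (-0.50 ± 0.07, limma adjusted p = 0.00171). Atp5b, the catalytic subunit of ATP synthase, fell from 743 ± 46.7 to 566 ± 25.7 FPKM (-0.39 ± 0.07, 0.00574), and Uqcrfs1, the Rieske protein of complex III, from 88.5 ± 3.25 to 69.5 ± 1.05 (-0.34 ± 0.06, 0.00403). Of the 11 nuclear subunits of complex IV, home of COX1 and COX2, 0 also had an unadjusted p under 0.05; Cox5b was at 316 ± 46.2 and 272 ± 0.378 FPKM (-0.21 ± 0.10, limma adjusted p = 0.176). Over the other settings 5 to 14 of the 71 fell, with 5 without replicate 3 with hypoxanthine and 9 without the 2 libraries of highest mitochondrial share. Without replicate 2 of inosine 2 of the 71 rose.

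Against glucose, 16 of the 71 (22.5%) fell with hypoxanthine and 0 rose, beside 9.55% of all genes lower, with a median of -0.16 beside 0.08 for the members. That count was 9 without replicate 1 of glucose, 8 without replicate 3 with hypoxanthine, 26 without replicate 2 of inosine and 31 without the 2 libraries of highest mitochondrial share. Replicate 2 of inosine is not in this comparison, so leaving it out changes only the spread that the fit shares over media. The share of all genes called in these settings is not given here. For inosine against glucose 0 of the 71 were called in limma and 2 had an unadjusted p under 0.05, with a median of -0.01 beside 0.28 for the members.

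**Figure D5:**
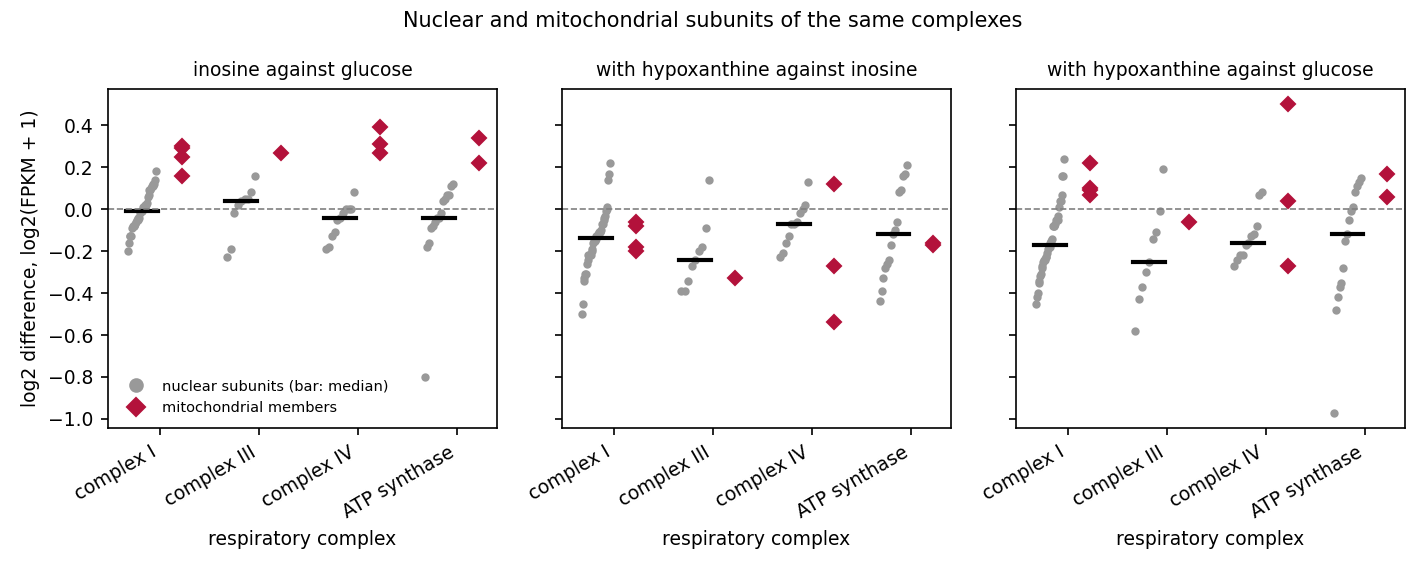
Log2 difference on the log2(FPKM + 1) scale of nuclear subunits (grey, with the median as a bar) and mitochondrial members (red) of complexes I, III and IV and ATP synthase in the 3 comparisons. In inosine against glucose the red points lie above the medians of the grey ones; with hypoxanthine against inosine COX2 is the lowest red point, at -0.54, and COX1 the highest, at 0.12.

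Genes that act on mitochondrial RNA were described from lists by role. Among 19 genes of mitochondrial RNA processing, stability and decay, 8 fell and 0 rose with hypoxanthine against inosine in limma, beside 9.59% of all genes lower, with a median log2 difference of -0.18. Lrpprc, which with Slirp binds and stabilises mitochondrial messengers, fell from 19.6 ± 0.894 to 14.4 ± 0.665 FPKM (-0.42 ± 0.06, limma adjusted p = 0.00213). Slirp itself was at 81.4 ± 20.8 and 72.2 ± 12.6 FPKM (-0.16 ± 0.18, limma adjusted p = 0.603). Fastkd2, an RNA-binding protein of mitochondrial granules, fell from 8.44 ± 1.23 to 5.09 ± 0.719 FPKM (-0.63 ± 0.12, limma adjusted p = 0.00699). The count was 4 without replicate 3 of inosine, without replicate 1 with hypoxanthine or without replicate 3 with hypoxanthine, and 7 without the 2 libraries of highest mitochondrial share.

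Among 11 mitochondrial translation factors, 6 fell and 0 rose in that comparison, beside 9.59% of all genes lower and 11.7% higher. Gfm1, an elongation factor, fell from 32.6 ± 3.08 to 20.2 ± 1.27 FPKM (-0.66 ± 0.08, limma adjusted p = 0.000799), and Tufm, another, from 71 ± 2.86 to 48.4 ± 2.63 (-0.54 ± 0.07, 0.00106). The count was 3 without replicate 3 of inosine and 4 without the 2 libraries of highest mitochondrial share. Against glucose 3 of the 11 fell with hypoxanthine, beside 9.55% of all genes lower.

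In the same comparison 0 of 10 genes of mitochondrial DNA transcription were called in limma, 0 had an unadjusted p under 0.05, and 1 rose with neither trend nor robust settings. Tfam, which packages the genome and starts its transcription, was at 11.4 ± 0.218 FPKM in inosine and 12.5 ± 0.377 with hypoxanthine (0.11 ± 0.06, limma adjusted p = 0.212). Among 12 genes of mitochondrial DNA replication and nucleotide supply, 3 rose and 1 fell. Polg, the catalytic subunit of the mitochondrial DNA polymerase, rose from 5.87 ± 0.62 to 8.95 ± 0.266 FPKM (0.54 ± 0.08, limma adjusted p = 0.00238), and Dguok, which phosphorylates purine deoxynucleosides in mitochondria, rose from 8.93 ± 0.693 to 13.8 ± 1.1 (0.58 ± 0.08, 0.00152). The shares of lists called were not compared by a test, and 21.3% of all genes were called in this comparison.

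The genes whose level over the 9 libraries followed the members' mean log2 level most closely, of 4902 nuclear genes whose mean reached 10 FPKM, were Psma4 (Pearson's r 0.981), a proteasome subunit, Ift20 (0.975), Cd48 (0.974), a surface receptor of lymphocytes, Ndufv2 (0.959), a complex I subunit, and Uqcr10 (0.950), a complex III subunit. Each was highest in replicate 2 of inosine and, within its medium, in replicate 2 with hypoxanthine: Psma4 was at 188, 180 and 197 FPKM in glucose, 182, 232 and 200 in inosine, and 177, 213 and 180 with hypoxanthine. The points share libraries and the genes were picked as the closest of many, so the correlations describe these 9 libraries.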

How the data were processed

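The authors deposited levels of each gene as FPKM (fragments corrected for length and depth) in every library, per the file headers. HISAT2, featureCounts (Subread 2.0.1), DESeq2 1.38.3 and the mm10 genome are named in the submitters' processing notes, without roles or settings. The authors' deposited tables also give group mean read counts (a signal scaled by size factors), log2 fold changes, p-values and adjusted p-values per comparison; these were used only where named and to estimate depth, since the estimated reads were not whole and no count test was run.

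Levels were analysed as log2(FPKM + 1) with limma 3.58.1 (R 4.3.3; trend and robust settings, 1 mean per medium, 9 libraries, 6 residual degrees of freedom, no filter). Genes passed, and are termed called, where the p adjusted over 20618 genes (Benjamini-Hochberg) was under 0.05, and intervals are 95%. The code was tested on simulated data. Nuclear copies were sought with BLAST 2.17.0 in GENCODE transcripts of GRCm38, the source of coordinates and sequences.

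Members and gene lists (169 listed genes, 3 of them not in the tables) were chosen with earlier results of these data known. From each list the 2 genes of smallest adjusted p with hypoxanthine against inosine and the 2 of highest level could be named, and the 5 genes most like the members. Other settings tried were the pseudocount, a level filter, scaling, the spread model, a replicate block and leaving out libraries. Shares of all genes called are given for the reported fit and the relative fit only, so counts under other settings have no like background.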

Additional observations from a re-analysis of the deposited data

How the results depend on the processing

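No member was called in limma as reported. For hypoxanthine against inosine, 1 member (COX2) was called with only genes of at least 1 FPKM, with an equal total outside the mitochondrial genome, or without the 2 libraries of highest mitochondrial share, and 3 (COX2, COX3 and CYTB; smallest adjusted p = 0.0124) with a replicate block and only the 2 media compared. Leaving out each library gave 0 to 1. Without those 2 libraries, 1 (COX2) was also called for hypoxanthine against glucose and among the 3 media. Relative to the members' mean, a scale chosen after seeing the data, 3 (COX1, COX2 and CYTB) were called for hypoxanthine against inosine, against glucose and among the 3 media with neither trend nor robust settings, and 1, 2 and 1 without the 2 libraries. Some of these settings use fewer genes or libraries, whereas the equal total and the change of trend and robust settings keep all of them. The cause of the changed calls was not tested. Of 570 log2 differences of members under other settings, here with the relative scale counted as 1 setting, 523 kept their sign and side of the threshold. Of the rest, 39 (none called) changed sign and 8 passed the threshold. Part of the 39 came from the relative scale, where signs balance around 0 by construction. Of 450 relative differences under other settings, these counts were 413, 28 and 9.

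A block for the replicate number over all 9 libraries called 0 members in each comparison. Deviations of same-numbered libraries correlated at -0.27 to 0.64, over 0.1 in 4 of 9 pairs, and 6 of 9 libraries correlated best with their own number. Between inosine and inosine with hypoxanthine the values were 0.41, 0.64 and 0.02 (replicates 1 to 3). These values do not settle whether the numbers pair the libraries, and the reported fit does not pair them. For hypoxanthine against inosine, the replicate block with only those 2 media called 3 members, as given above. Precision was limited by 3 libraries per medium and by 2 of 9 with high mitochondrial RNA. Whole-read counts, strand setting and treatment of reads with several matches are not given in the sources used here.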

Other observations

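Other gene groups around the respiratory chain had these counts with hypoxanthine against inosine in limma (adjusted p under 0.05), where 9.59% of all genes fell and 11.7% rose. Of 4 subunits of complex II, which has no mitochondrial gene, 2 fell: Sdhd from 110 ± 8.95 to 73.8 ± 3.87 FPKM (-0.56 ± 0.07, adjusted p = 0.00115) and Sdha, which holds the flavin, from 69.2 ± 1.04 to 58.2 ± 2.3 (-0.25 ± 0.06, 0.0194). That count was 1 without replicate 3 of inosine, replicate 2 with hypoxanthine or replicate 3 with hypoxanthine. Of 29 assembly factors 6 fell and 1 rose, among them Cox10, which makes the haem of complex IV, from 9.79 ± 0.846 to 6.48 ± 0.784 FPKM (-0.53 ± 0.10, limma adjusted p = 0.00479); without the 2 libraries of highest mitochondrial share 6 fell and 2 rose. Cox17, a copper chaperone of complex IV, was at 360 ± 66 and 427 ± 29.2 FPKM (0.26 ± 0.12, limma adjusted p = 0.173). Of 7 regulators of mitochondrial biogenesis 1 fell, Nrf1, from 18.6 ± 1 to 14.7 ± 1.26 FPKM (-0.33 ± 0.08, limma adjusted p = 0.0204), and 0 did without replicate 1 or 3 of inosine or replicate 2 with hypoxanthine.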
